A study of Mus musculus with 24 samples.

Results

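The comparison of Th2 with Th0 cultures rested on 12 of the 24 libraries of the series, 6 of Th2 and 6 of Th0, taken as pairs at 4, 8, 12, 16, 20 and 24 h after activation. All came from CD4+ T cells purified by negative selection from the spleen of adult wildtype C57BL/6 mice, pooled from several mice per the study. Both conditions received plate-bound anti-CD3 and soluble anti-CD28, which stand in for the antigen signal and the costimulatory signal of a T cell. The Th2 cultures also received recombinant IL-4, anti-IL-12 and anti-IFN-γ. These 3 agents were added together, so their effects cannot be told apart. Each condition and hour was sequenced once, from 1 culture series per condition, so the 6 pairs are time points and not biological replicates. Every p-value below measures a difference against a spread over time points only, or a change with time against the spread around a straight line. That spread was estimated from all 18 cultures, the 6 of Th1 type included. The study's text names the cells both as purified and as naive CD4+ T cells, and the labels state no sort for naive cells. The other cultures, 6 of Th1 type, took part in the fit and are otherwise given only where they bear on a Th2 or Th0 value, and 2 libraries of resting cells show the level before activation.

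CD4+ T cells that are activated in the presence of IL-4 are driven towards the Th2 type through STAT6 and GATA3, and later make IL-4, IL-5 and IL-13. IFN-γ, which activated T cells secrete themselves, acts back on them through its receptor and induces the transcription factors IRF1 and T-bet (Tbx21), the large GTPases of the Gbp and Irg families that attack the vacuoles of intracellular pathogens, and the machinery of MHC class I presentation. Th0 cultures, to which no cytokine and no blocking antibody was added, leave both routes open.

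Values are RPKM, read counts scaled by transcript length and by the mapped reads of the library. Differences are Th2 minus Th0 on log2(RPKM + 0.5), averaged over the 6 pairs with their standard error (SE), and this scale understates the change of low genes. The mapped reads recovered from the values ranged from 21461181 to 29686702 in Th0 and from 17512385 to 30830243 in Th2. Markers of CD4+ T cells were present in every library, with a summed level of Cd3d, Cd3e, Cd3g, Cd4, Lck and Cd28 between 1038.9 and 1196 RPKM in Th0 and between 1073 and 1181 RPKM in Th2. Cd4 itself was lower in Th2, between 111 and 186 RPKM (median 145) against 148 to 216 RPKM (median 190) in Th0, a limma difference of −0.37 (adjusted p = 0.0033). Of the B cell markers, Cd79a reached at most 14.9 RPKM and Ms4a1 at most 7.89 RPKM in any of the 12 libraries, and Cd8a and Cd8b1 summed to at most 15.7 RPKM. Haemoglobin genes made up 5.83% of the summed RPKM in Th0 and 7.36% in Th2 at 4 h, 4.66% and 2.51% at 8 h, and 0.0994% and 0.0734% at 20 h.

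A gene was called where limma gave an adjusted p under 0.05 and the mean difference was at least 2-fold. Of 10737 genes tested, 196 were lower in Th2 (1.83%) and 20 were higher (0.186%), so 90.7% of the 216 called genes were lower. The fit paired the libraries of each hour, and without that pairing 69 were lower and 10 higher, all 79 of them also called with it. The GTPases of the Gbp and Irg families were among the genes with the largest falls, and the chemokine receptor Ccr4, the circadian transcription factor Npas2 and the chemokine Ccl17 led the higher genes. Without the threshold on size, 1788 genes were lower (16.7%) and 1390 were higher (12.9%) at an adjusted p under 0.05, so most of the small differences were split more evenly. The lower genes were lower from the first hour on: 188 of the 196 were lower in Th2 at all 6 time points, against 14.6% of all genes tested, and 15 of the 20 higher genes were higher at all 6, against 9.04%. These shares restate in part the values that made the calls.

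**Figure D1:**
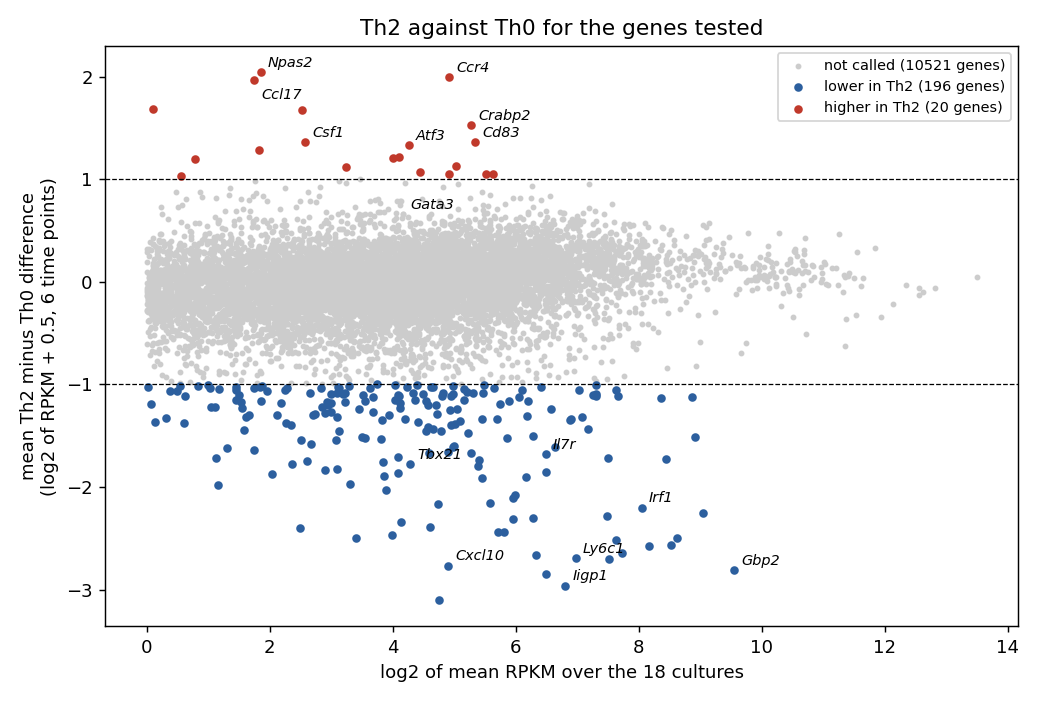
Mean Th2 minus Th0 difference over 6 time points (vertical axis, log2 of RPKM + 0.5) against the log2 of the mean RPKM over 18 cultures (horizontal axis), 1 point per gene tested. Dashed lines mark 2-fold, and the 196 lower genes (blue) reach further from 0 than the 20 higher genes (red).

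Promoters of genes that head each direction are shown for the short motifs that cytokine signals act on. Motifs were searched on both strands from 250 bases before to 50 bases after each RefSeq start site (GRCm38.p6): TTCNNNGAA, the spacing that many STAT dimers bind; TTCNNNNGAA, the wider spacing that STAT6 prefers; and GAAANNGAAA, the core that IRF factors bind. Capitals mark the matches, and each motif is counted on its own where matches overlap. Of the 12 largest falls and the 12 largest rises named here, the first by size that holds each motif is given for each direction, with the Gbp or Irg gene of the largest fall that had a promoter to print. Among those with a promoter in the table, none of the falls held TTCNNNNGAA and none of the rises held GAAANNGAAA, so no gene is given for these.
Gbp2 (chr3:142620413-142620712, + strand): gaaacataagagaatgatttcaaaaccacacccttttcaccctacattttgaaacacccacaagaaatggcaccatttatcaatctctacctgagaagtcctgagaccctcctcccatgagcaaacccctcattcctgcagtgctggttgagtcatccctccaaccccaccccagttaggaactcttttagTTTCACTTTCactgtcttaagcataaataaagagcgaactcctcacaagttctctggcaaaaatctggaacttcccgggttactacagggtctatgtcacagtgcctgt
Tgtp2 (chr11:49064163-49064462, − strand): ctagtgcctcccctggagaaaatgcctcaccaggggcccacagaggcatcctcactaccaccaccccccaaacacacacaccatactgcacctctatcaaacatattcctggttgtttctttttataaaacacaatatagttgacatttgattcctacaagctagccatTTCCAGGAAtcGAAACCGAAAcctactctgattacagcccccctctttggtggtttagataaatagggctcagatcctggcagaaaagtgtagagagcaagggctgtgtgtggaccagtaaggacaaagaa
Ifit1bl1 (chr19:34601919-34602218, − strand): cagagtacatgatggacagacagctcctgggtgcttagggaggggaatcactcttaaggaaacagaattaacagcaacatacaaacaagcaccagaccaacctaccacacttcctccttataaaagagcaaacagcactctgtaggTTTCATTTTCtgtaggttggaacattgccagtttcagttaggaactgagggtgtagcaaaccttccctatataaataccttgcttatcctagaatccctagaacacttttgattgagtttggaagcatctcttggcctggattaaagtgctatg
Ccl17 (chr8:94810203-94810502, + strand): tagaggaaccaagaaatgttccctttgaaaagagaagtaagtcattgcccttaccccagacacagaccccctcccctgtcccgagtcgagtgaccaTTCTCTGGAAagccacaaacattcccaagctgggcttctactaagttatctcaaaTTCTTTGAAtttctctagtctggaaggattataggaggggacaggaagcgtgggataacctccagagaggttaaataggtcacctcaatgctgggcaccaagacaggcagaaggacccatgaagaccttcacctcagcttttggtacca

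In Gbp2 the GAAANNGAAA core, read on the other strand, begins 59 bases before the start site. Tgtp2 holds TTCNNNGAA 81 bases before its start and GAAANNGAAA 70 bases before it, next to each other. Ccl17, higher in Th2, holds TTCNNNNGAA 154 bases before its start and TTCNNNGAA 99 bases before it. Among genes tested, 8181 had 1 or more promoters in the RefSeq table, 10407 promoters in all. GAAANNGAAA was present in 28.6% of the 161 promoters of lower genes (132 genes), in 5.56% of the 18 promoters of higher genes (16 genes) and in 3.28% of all. TTCNNNGAA was present in 14.9%, 11.1% and 7.03%, and TTCNNNNGAA in 8.07%, 11.1% and 5.39%, in the same order. Of the 8 Irg genes with a promoter, 6 held GAAANNGAAA, and of the 4 Gbp genes all 4 did. A match describes the letters in this window and does not show that a factor was bound.

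The guanylate-binding proteins were lower in Th2 without exception among those tested. All 7 Gbp genes tested were called lower, with differences from −2.81 to −2.15 and a median of −2.44, beside a median of 0.002 over all genes tested. Gbp2 (ENSMUSG00000028270), which coats pathogen vacuoles, was at 1529, 1996, 992, 739, 755 and 793 RPKM in Th0 from 4 to 24 h, and at 353, 185, 147, 124, 98.4 and 94.7 RPKM in Th2. The lowest Th0 value was above the highest Th2 value, although all 12 were above the resting cells (47.9 and 45.3 RPKM). Its difference of −2.81 (SE 0.16, adjusted p = 5.7e-09) corresponded to 7.01-fold. Gbp8, Gbp4 and Gbp7 were lower by 2.66, 2.51 and 2.44 on the same scale. 4 of the members lie side by side on chromosome 3, at chr3:142530342-142638008 (GRCm38), where all 4 genes tested (Gbp7, Gbp3, Gbp2b and Gbp2) were called, and Gbp8, Gbp9 and Gbp4 lie at chr5:104935057-105293695, where all 5 tested were called. The annotated positions of Gbp8, Gbp9 and Gbp4 overlap, so reads may be shared between them.

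The immunity-related GTPases, which share the task of marking pathogen vacuoles, showed the same pattern, with all 10 tested members called lower and a median of −2.47, while 2 further members of the list, Irgc1 and F830016B08Rik, were too low to be tested. Iigp1 was at 210, 316, 169, 120, 107 and 115 RPKM in Th0 and at 66.1, 35.6, 21.1, 13.3, 8.92 and 10.7 RPKM in Th2, against 16.4 and 15.2 RPKM at rest. In Th2 it thus stood above the resting level from 4 to 12 h and below it from 16 h on, whereas every Th0 value was above it. The difference was −2.96 (SE 0.20, adjusted p = 4.3e-08). Irgm1, a regulator of the other family members, was at 431, 344, 225, 210, 205 and 204 RPKM in Th0 and at 118, 61.2, 38.4, 30, 20.9 and 21 RPKM in Th2. The gap widened with time, by −1.36 on the log2 scale over 20 h (SE 0.29, adjusted p = 0.02). Tgtp1 and Tgtp2 were lower by 2.58 and 2.65, but they are near-identical copies between which reads may be split, and the same holds for Ifit3 and Ifit3b. Reads may also be shared between the related genes Ifit1 and Ifit1bl1, and between Igtp and Irgm2, whose annotated positions overlap. On chromosome 11, 9 of 10 tested genes in the span chr11:48861968-49135387, from Irgm1 to Ifi47, were called lower.

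The transcription factors that carry interferon signals were lower as well. Irf1, which interferons induce, was at 643, 519, 334, 306, 262 and 219 RPKM in Th0 and at 232, 100.1, 75, 58, 46.8 and 42.4 RPKM in Th2, a difference of −2.20 (SE 0.13, adjusted p = 1.4e-08). It was above the resting level (175 and 174 RPKM) in Th0 at every hour, and in Th2 at 4 h but not later. Irf7, Stat2, Irf8 and Irf9 were called lower too, with differences of −1.66, −1.46, −1.32 and −1.08, and of the 20 STATs, IRFs and Janus kinases tested 6 were called lower and none higher. Stat6, the signal carrier of IL-4, was at −0.08 (SE 0.08, adjusted p = 0.48).

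Of 49 tested interferon-stimulated antiviral genes, 33 were called lower and none higher, and all 49 had a negative difference, with a median of −1.06. Ifit3, a tetratricopeptide protein that restrains viral RNA, was at −2.47 and Oasl2, of the oligoadenylate synthetase family, at −2.34. Zbp1, a sensor of viral nucleic acid, was at −2.11 and Ifi203, of the DNA-sensing PYHIN family, at −2.08. Isg15, a ubiquitin-like modifier, differed in its course: it was at 31.7 RPKM in Th0 and 41.5 RPKM in Th2 at 4 h, and at 7.49 and 1.34 RPKM at 24 h. The median of the list moved from −0.46 at 4 h to −1.44 at 8 h and was −0.95 at 24 h. The Th1 cultures were also below Th0 in these genes at 8 h, with a median Th1 minus Th0 difference of −0.71 against 0.03 at 4 h. For the Gbp and Irg genes it was −0.81 and −0.84 at 8 h. At 12 h the medians of the antiviral, Gbp and Irg genes were −0.43, −0.72 and −0.56. They were 0.29, 0.12 and −0.004 at 16 h, −0.006, −0.27 and −0.17 at 20 h, and −0.19, −0.27 and −0.34 at 24 h. The part of the Th0 libraries in these values was not tested. The chemokine Cxcl10, which attracts cells that carry CXCR3, was at 60.8, 41.6, 19.3, 17, 11.2 and 7.76 RPKM in Th0 and at 11.5, 4.21, 2.98, 2.09, 1.18 and 0.5 RPKM in Th2. It was lower in Th2 at every hour although both courses declined, with a difference of −2.77 (SE 0.11, adjusted p = 2.3e-10).

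MHC class I presentation was lower by less. Of 27 members tested, 6 were called lower and none higher, 23 were lower at an adjusted p under 0.05, and the median was −0.84. Nlrc5, the transactivator of class I genes, was at −1.61 (SE 0.14), Psmb9, a subunit of the immunoproteasome, at −1.50 (SE 0.13), and the peptide transporters Tap1 and Tap2 at −1.44 (SE 0.11) and −1.24 (SE 0.11). Psmb9, Tap1, Tap2 and Tapbp lie within chr17:33915899-34216321, in which 5 of 24 genes tested were called. Of 10 class II presentation genes, Ctss, the protease cathepsin S, was the one called (−1.03, SE 0.17), and the median was −0.17.

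**Figure D2:**
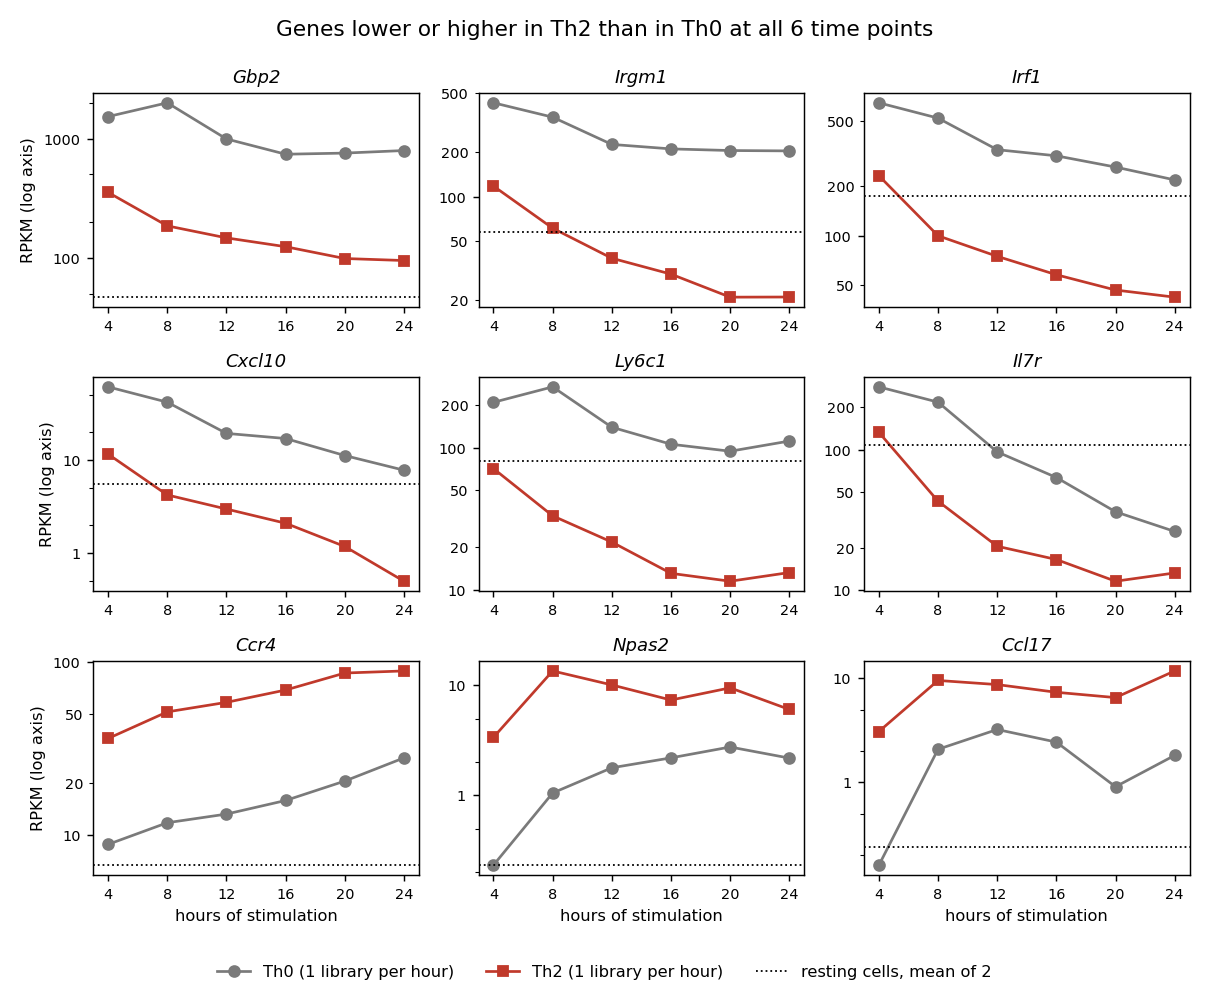
RPKM (log axis) against hours of stimulation for 9 genes, with 1 library per point in Th0 (grey circles) and Th2 (red squares) and the mean of 2 resting libraries as a dotted line. The first 6 panels show genes lower in Th2 at every hour, and the last 3 show genes higher at every hour.

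Of 22 T follicular helper and memory genes, 4 were called lower and none higher, with a median of −0.22, and of 30 homing and adhesion genes, 9 were called lower and 2 higher, with a median of −0.41. Il7r, the receptor subunit for the survival cytokine IL-7, was at 280, 218, 96.5, 63.4, 36.2 and 26.2 RPKM in Th0 and at 133, 43, 20.6, 16.5, 11.6 and 13.3 RPKM in Th2. It stood above the resting level (108 and 107 RPKM) at 4 and 8 h in Th0 and at 4 h in Th2, with a difference of −1.68 (SE 0.19, adjusted p = 1.1e-05). Klf2 and its target S1pr1, which together let T cells leave lymphoid tissue, were at −1.31 (SE 0.12) and −1.19 (SE 0.19). Ly6c1, a surface protein of memory and interferon-treated T cells, was above both resting values in Th0 at every hour (94.2 to 267 RPKM, against 79.8 and 81.1 RPKM) and below both in Th2 (11.5 to 71.1 RPKM), although reads may be shared with its near copy Ly6c2. The cell cycle inhibitor Cdkn1b (−1.07), the glucose uptake regulator Txnip (−1.06) and the integrin subunits Itgb7 (−1.33) and Itga4 (−1.02) were also called lower. Those 4 genes were chosen after their values were seen.

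The called genes were also set against the resting cells, with the 196 lower genes first. The mean of the 6 Th0 values was above the resting mean and that of Th2 was not for 75 of them, both were above it for 16, and neither was for 105. Of the 20 higher genes, 16 were above the resting mean in both conditions and 3 in Th2 alone. The same counts were not made for all genes tested, and they depend in part on the calls themselves. They are therefore not read as traits of the called genes. The resting libraries carry another tag in their titles than the cultures, so a difference in preparation and the activation cannot be told apart here.

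Among the 20 higher genes, 14 were in none of the 28 lists. Ccr4, a chemokine receptor of Th2 and regulatory T cells, was at 8.79, 11.7, 13.2, 15.8, 20.5 and 27.9 RPKM in Th0 and at 36.1, 51.5, 58.5, 68.9, 86.4 and 88.9 RPKM in Th2. The values were higher at each later hour in both conditions and did not overlap between them, and the difference was 1.99 (SE 0.08, adjusted p = 2e-10), or 3.99-fold. Its ratio of reads in Th2 to those in Th0 was between 3.19 (95% interval 3.03 to 3.35) at 24 h and 4.44 (4.14 to 4.76) at 12 h, intervals that cover counting error only. Npas2, a partner of the circadian regulator BMAL1, was at 0.233, 1.05, 1.79, 2.2, 2.76 and 2.19 RPKM in Th0 and at 3.38, 13.6, 10.1, 7.38, 9.52 and 6.05 RPKM in Th2, a difference of 2.04 (SE 0.21, adjusted p = 6.4e-06). The lowest Th2 value of Npas2 was above the highest Th0 value.

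Of the other genes higher in Th2, Ccl17, Ccl22 and Chil3 belong to the list of the IL-4 and STAT6 response. Ccl17, a ligand of CCR4, was at 0.16, 2.08, 3.22, 2.44, 0.908 and 1.82 RPKM in Th0 and at 3.08, 9.51, 8.68, 7.32, 6.51 and 11.7 RPKM in Th2. It was higher at each hour although the lowest Th2 value fell within the Th0 range, and the lowest Th0 value rested on 2 reads. Ccl22, the other ligand of CCR4, was at 1.05 (SE 0.17), and Chil3, a chitinase-like protein of macrophages activated by IL-4, was at 1.69 (SE 0.30) with no Th2 value above 5.37 RPKM. The monocyte and macrophage markers Csf1r, C1qa, Lyz2 and Cd68 summed to between 10.3 and 38.6 RPKM in Th0 and between 6.88 and 51.2 RPKM in Th2, and of 13 tested monocyte, macrophage and dendritic cell genes none was called higher and 1, Lyz2, was called lower (−1.10, SE 0.22). Without the threshold on size, 2 of these 13 genes were higher and 3 lower at an adjusted p under 0.05. The dendritic cell marker Itgax was among the higher ones, with a limma difference of 0.34 (adjusted p = 0.03). The part of such cells in these chemokines was not tested, and in bulk samples a change in the number of cells of a type and in RNA per cell cannot be told apart. Cd83, a surface protein of activated lymphocytes, was at 27.3, 31.9, 31, 23.2, 22.9 and 23.7 RPKM in Th0 and at 63.7, 47.4, 48.7, 60.9, 81.2 and 141 RPKM in Th2, without overlap. Atf3, a stress-induced transcription factor, was highest in Th2 at 4 h, with 70.2 RPKM against 12 RPKM in Th0, and stood at 25.8 against 14 RPKM at 24 h. Crabp2, a carrier of retinoic acid, Sema4b, Hemk1, Ccr8, Akr1c18 and the prion protein gene Prnp followed, with differences from 1.07 to 1.52.

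The genes that define the Th2 type differed by less than 2-fold on average, apart from chemokine receptors. Of 26 tested genes of the Th2 programme, 2 were called higher (Ccr4 and Ccr8) and none lower, 12 were higher at an adjusted p under 0.05, and the median was 0.35. Gata3, the factor that directs Th2 differentiation, was at 30.6, 16.7, 14.9, 18.1, 14.7 and 11.2 RPKM in Th0 and at 34.4, 24.7, 18.8, 21.7, 34.4 and 31.1 RPKM in Th2. The conditions were close at 4 h and far apart at 20 and 24 h: the mean difference was 0.66 (SE 0.14, adjusted p = 0.0036) and its change over 20 h was 1.17 (SE 0.31, adjusted p = 0.041). Il4 was at 18.7, 9.39, 13.3, 10, 7.53 and 13.5 RPKM in Th0 and at 47.4, 22.8, 11.7, 6.97, 8.02 and 11.4 RPKM in Th2. It was higher in Th2 at 4 and 8 h and of mixed sign after that, with a mean difference of 0.29 (SE 0.27, adjusted p = 0.44). The IL-4 receptor gene Il4ra likewise began higher in Th2 at 4 h (363 against 225 RPKM), was lower at 8 h (114 against 202 RPKM) and was 78.1 against 65.1 RPKM at 24 h.

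Of 26 tested genes of the IL-4 and STAT6 response, Chil3, Ccl17 and Ccl22 were called higher and none was called lower, with a median of 0.22. Socs1, an inhibitor of Janus kinases that both IL-4 and IFN-γ induce, was at −0.05 (SE 0.13). None of the 16 genes of the SOCS family and other STAT feedback was called. Cish, an inhibitor of STAT5 signalling, reached 0.84 (SE 0.10, adjusted p = 3.4e-05), and its Th2 values (120 to 163 RPKM) were all above its Th0 values (50.2 to 105 RPKM). Values that do not overlap in this way were rare among the genes tested: in 101 all 6 Th2 values lay below all 6 Th0 values (0.941%) and in 26 above (0.242%), and 33 of the 196 lower and 8 of the 20 higher genes were among them.

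**Figure D3:**
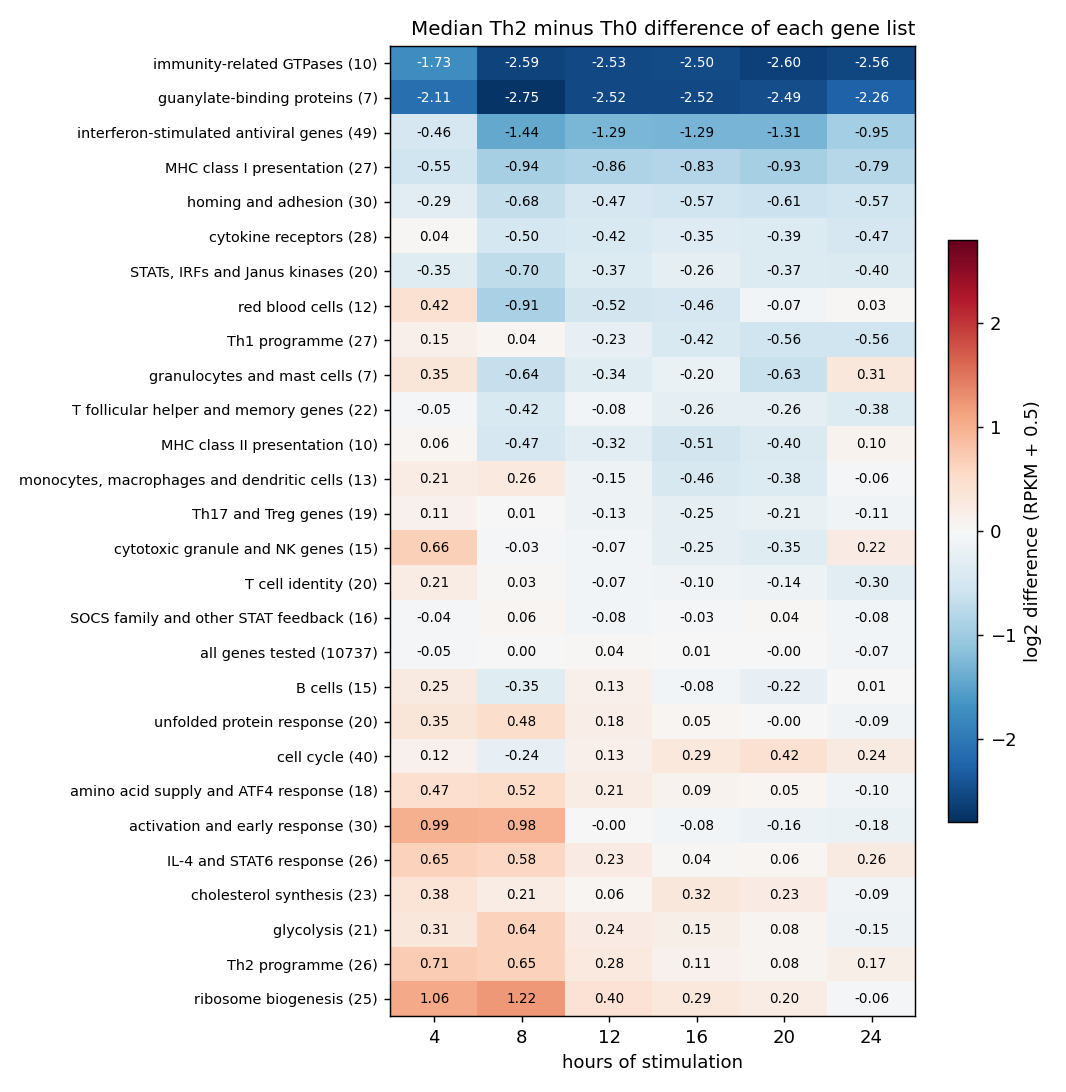
Median Th2 minus Th0 difference (log2 of RPKM + 0.5) of each gene list except CD8 T cells at each hour, with the number of members tested in brackets and all genes tested as 1 of the rows. The Irg and Gbp lists are at −1.73 or below at every hour, whereas activation genes go from near 1 at 4 and 8 h to between −0.002 and −0.18 later, and ribosome biogenesis genes from 1.06 and 1.22 through 0.40 at 12 h to −0.06 at 24 h.

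The difference between the conditions changed with time for a second group of genes. A linear change was called where its adjusted p was under 0.05 and it came to at least 1 on the log2 scale over 20 h, which held for 345 genes falling in Th2 against Th0 (3.21%) and 77 rising (0.717%). Of those falling, 285 were higher in Th2 at 4 h and lower at 24 h. These counts rest on the choice of libraries: with the 12 Th0 and Th2 cultures alone they were 73 and 3, without the 20 h libraries 78 and 4, without the 4 h libraries 1192 and 787, and over 12 to 24 h they were 34 and 43. Of the 345 falling and 77 rising genes, 73 and 3 were called again with the 12 cultures alone. Over 12 to 24 h it was 18 and 10 of them. The changes with time given for single genes, Irgm1 and Gata3 included, are those of the fit to all 18 cultures and share this limit.

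Tbx21, which encodes the Th1-directing factor T-bet, had a difference that grew from hour to hour. It was at 11.7, 11, 15, 22.6, 36.1 and 41 RPKM in Th0 and at 9.7, 8.48, 5.37, 4.04, 4.3 and 3.5 RPKM in Th2. The ratio of its reads went from 0.831 at 4 h (95% interval 0.738 to 0.935) to 0.0854 at 24 h (0.0742 to 0.0979). Its change over 20 h was −3.47 (SE 0.24, adjusted p = 8e-06), and its mean difference was −1.78 (SE 0.33, adjusted p = 0.0013). Il12rb2, the inducible subunit of the IL-12 receptor, started level, with 12 RPKM in Th0 and 13.4 RPKM in Th2 at 4 h, and stood at 9.87 and 1.75 RPKM at 24 h. Irf8, a factor that IFN-γ induces, went from 75.2 RPKM at 4 h to 249 RPKM at 24 h in Th0, while its Th2 values lay between 42.1 and 65.9 RPKM.

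Ifng took another course than the GTPase genes. It was at 14.9, 19.1, 46.2, 65, 75.1 and 94.5 RPKM in Th0 and at 60.5, 62.6, 71.4, 73, 75 and 66.2 RPKM in Th2. The Th2 cultures thus held more Ifng transcript from 4 to 16 h, a near-equal level at 20 h and less at 24 h. The ratio of reads was 4.06 at 4 h (95% interval 3.64 to 4.53), 0.999 at 20 h (0.942 to 1.06) and 0.701 at 24 h (0.663 to 0.742). Its change over 20 h was −2.57 (SE 0.34, adjusted p = 0.0015), whereas the mean difference of 0.66 was not called (SE 0.26, adjusted p = 0.068). Of 27 tested genes of the Th1 programme, 3 were called lower by their mean difference (Tbx21, Il12rb2 and Ifngr1, the ligand-binding chain of the IFN-γ receptor), 11 fell with time, among them Lta, Tnf, Ccl3 and Ccl4, and 1, Cd226, rose.

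Genes that respond early to the T cell receptor had positive differences at 4 and 8 h and differences near 0 or below it later. The median of the 30 activation genes was 0.99, 0.98, −0.002, −0.08, −0.16 and −0.18 from 4 to 24 h, and 18 of them fell with time against Th0 while none rose. Nr4a1, an immediate early nuclear receptor, was at 345, 304, 552, 434, 329 and 211 RPKM in Th0 and at 875, 783, 446, 280, 217 and 151 RPKM in Th2, so it peaked at 4 h in Th2 and at 12 h in Th0. Myc was at 52.2 and 79.5 RPKM in Th0 and at 157 and 257 RPKM in Th2 at 4 and 8 h, and at 272 and 206 RPKM at 24 h. Ribosome biogenesis genes had a like course, with medians of 1.06, 1.22, 0.40, 0.29, 0.20 and −0.06: 22 of 25 were higher in Th2 at an adjusted p under 0.05, none was called at 2-fold, and 13 fell with time. Npm1, a chaperone of ribosome assembly, was at 654 RPKM in Th0 and 1113 RPKM in Th2 at 4 h. The Th1 cultures also differed from Th0 in these lists at 8 h, with medians of 0.81 for the activation genes and 0.93 for ribosome biogenesis, so at 8 h the Th0 library stood below both skewed cultures in them; at 4 h these medians were 0.41 and 0.34. The part of the Th0 library in the early differences was not tested.

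Fewer genes moved the other way. Csf1, the growth factor of macrophages, was at 4.61, 3.63, 2.61, 3.94, 2.62 and 2.32 RPKM in Th0 and at 2.88, 4.31, 5.13, 12.5, 23.9 and 25 RPKM in Th2, a change of 3.97 over 20 h (SE 0.29, adjusted p = 8.5e-06). From 12 h on every Th2 value was above every Th0 value. Erbb3, a receptor of the EGF family, reached 16.5 RPKM in Th2 at 20 h against 1.94 RPKM in Th0, and Id1, an inhibitor of helix-loop-helix factors, 23 against 2.53 RPKM. Klrb1f, a lectin-like receptor, and Tspan9, a tetraspanin, completed the 5 largest, with changes of 3.36 and 2.12. At the other end stood Plaur, the urokinase receptor (−3.62), Tbx21, the semaphorin Sema7a (−2.94), the cytokine Lta (−2.87) and the chemokine Ccl1 (−2.82).

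**Figure D4:**
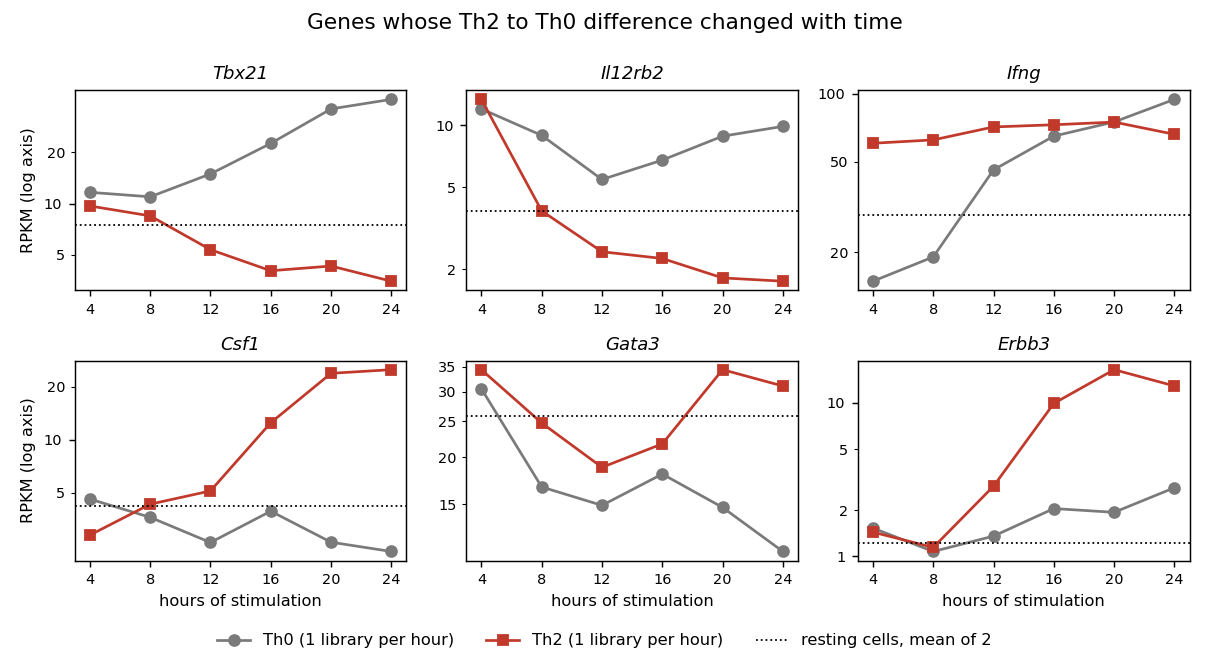
RPKM (log axis) against hours of stimulation for 6 genes whose Th2 to Th0 difference changed with time, with 1 library per point in Th0 (grey circles) and Th2 (red squares) and the mean of 2 resting libraries as a dotted line. Tbx21, Il12rb2 and Ifng fell in Th2 against Th0, and Csf1, Gata3 and Erbb3 rose.

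The remaining lists held few called genes or none. In metabolism, glycolysis (21 tested), cholesterol synthesis (23), amino acid supply and the ATF4 response (18) and the unfolded protein response (20) had no called member and medians of 0.28, 0.23, 0.21 and 0.16. In the same order, the medians were 0.31, 0.38, 0.47 and 0.35 at 4 h and 0.64, 0.21, 0.52 and 0.48 at 8 h. At 24 h they were −0.15, −0.09, −0.10 and −0.09. The Th1 minus Th0 medians at 8 h were 0.50, −0.07, 0.38 and 0.34. The glycolytic enzyme Gapdh was at 0.42 (SE 0.10, adjusted p = 0.0057). None of 40 cell cycle genes was called, and their median was 0.21, with hourly medians of 0.12, −0.24, 0.13, 0.29, 0.42 and 0.24 from 4 to 24 h. Among 28 cytokine receptors 3 were called lower and none higher (Il7r, Il12rb2 and Ifngr1), with a median of −0.35. Of 15 cytotoxic granule and NK genes the protease gene Gzma was called higher (1.05, SE 0.20). None was called among 19 Th17 and Treg genes, 20 T cell identity genes, 15 B cell genes, 2 CD8 T cell genes, 7 granulocyte and mast cell genes and 12 red blood cell genes.

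With 1 library per condition, the differences at a single hour have no test and were counted past 2-fold. At 4 h, 277 genes were higher in Th2 (2.58%) and 204 lower (1.9%). At 8 h, 633 were higher (5.9%) and 785 lower (7.31%), by far the most of the 6 hours. From 12 h on the lower genes prevailed. At 12 h, 40 were higher (0.373%) and 326 lower (3.04%). At 16 h, 37 were higher (0.345%) and 240 lower (2.24%), at 20 h 57 (0.531%) and 230 (2.14%), and at 24 h 80 (0.745%) and 187 (1.74%). The SD of the log2 differences over genes was 0.68 at 8 h and between 0.39 and 0.48 at the other hours. At 8 h the Th1 culture differed from Th0 by an SD of 0.46 and from Th2 by 0.42, and haemoglobin genes and the red blood cell list (median −0.91) differed between Th2 and Th0 as well. Of the 196 lower genes, 124 had their largest fall at 8 h, the hour at which the differences were widest over all genes tested. The same count was not made for all genes tested, so it is not read as a trait of the lower genes. Of the 196, 182 were at least 2-fold lower at 12 h, 176 at 16 h and 161 at 20 h, against 85 at 4 h and 118 at 24 h. Without the 8 h libraries 152 genes were lower and 21 higher, and 151 of the 196 and 15 of the 20 were called again. Over 12 to 24 h alone, 166 of the 196 and 15 of the 20 were called.

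**Figure D5:**
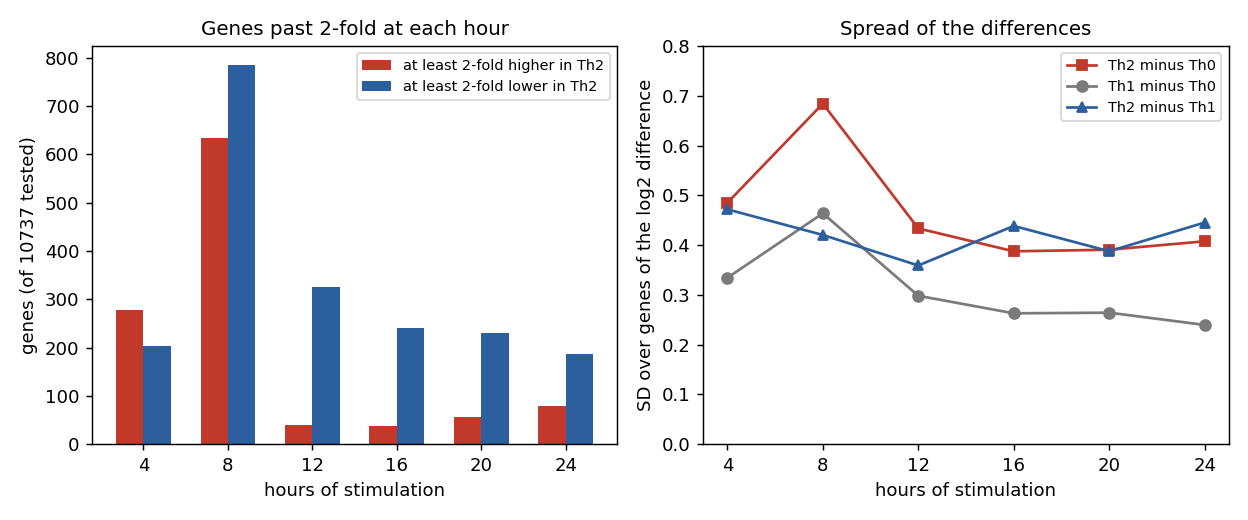
Left, genes at least 2-fold higher (red) or lower (blue) in Th2 than in Th0 at each hour, of 10737 tested. Right, SD over genes of the log2 difference between the libraries of each pair of conditions at each hour, which is widest for Th2 and Th0 at 8 h (0.68).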

How the data were processed

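RNA sequencing was carried out by the authors on an Illumina instrument, with 1 library per condition and hour. The authors deposited RPKM values for 22009 named genes (and 1 entry without a name, at 0). The submitters' processing notes name BWA and GRCm38, and the counter and annotation are not given in the sources used here. RPKM depend on the gene model and the library's composition.

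Genes that averaged 1 RPKM or more over the 18 cultures (10737) were tested on log2(RPKM + 0.5) with limma 3.58.1 in R 4.3.3, with time as a factor, an intensity trend and Benjamini-Hochberg adjustment; a second fit added the change with hours. The scripts were tested on simulated data. Mapped reads per library were found from genes with 1 annotated transcript and their GENCODE M21 lengths. With these, of 16096 genes with at least 6 values above 0, 6063 (37.7%) were whole multiples of 1 step within 0.02, which gave their read counts. Ratios have exact conditional binomial 95% intervals (scipy 1.17.1), which cover counting error only. Promoters are RefSeq's, and gene coordinates GENCODE M21 on GRCm38.

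The comparison and the gene lists were chosen with earlier results of these data known. Named genes are the 12 most raised and the 12 most lowered called genes of 1 sign at all 6 hours, the 5 largest changes with time each way, up to 4 called members of each list (else the 2 of highest mean level) and 8 defining genes, leaving out provisional, microRNA and snoRNA names. Some genes are not reported here. Other genes named were chosen after their values were seen. Alternatives were other pseudocounts, filters, scalings, samples and time points, and the time factor left out. Th1 cultures entered the fit and are given only as list medians and SDs against Th0 and Th2, with no test, and the actinomycin libraries were not analysed here.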

Additional observations from a re-analysis of the deposited data

Results flagged for a closer look

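In 82 sets of 6 values (the list medians, the mapped reads, the spread of the differences and the named called genes), the value farthest from the others was compared with its neighbour by Dixon's test, which chance passes in about 1 of 20 sets. It was passed in 14 sets. The SD over genes of the Th2 minus Th0 differences stood apart at 8 h, with 0.68, and so did the median of the STATs, IRFs and Janus kinases at 8 h, with −0.70.

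In 11 sets it was the 4 h pair that stood apart, with a difference nearer to 0 than at later hours. The median of the immunity-related GTPases was −1.73 at 4 h and that of the cytokine receptors 0.038. Single genes at 4 h were Iigp1 with −1.66, Ly6c1 with −1.54, Tgtp2 with −1.47, Tgtp1 with −1.41, Igtp with −1.90, Ifit3 with −1.06, Zbp1 with −1.10, Irf1 with −1.47 and Klf2 with −0.76. Many of these genes share the same pattern over hours, so the sets are not independent. Ccr4 at 24 h, with 1.66, was the remaining one.

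Ly6c1, with a mean difference of −2.70, was the 1 gene of 51 named called genes whose Th0 values were all above and Th2 values all below both resting values. This difference from rest was not tested.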

How the results depend on the processing

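Of 51 named genes called by their mean difference, 40 were called under all 16 alternatives that keep the time point in the fit and none changed direction. The lower genes numbered between 156 and 234 under the other pseudocounts, filters, scalings and samples, and between 152 and 230 with a time point left out. The higher genes numbered between 19 and 24 with a time point left out, and elsewhere between 14 with the 5 RPKM filter and 31 with a pseudocount of 0.1. The genes past 2-fold at 16 h numbered 183 once the filter was raised to 5 RPKM. Changes with time were the least stable: the falling and rising genes numbered 169 and 33 without a filter, 73 and 3 with the 12 Th0 and Th2 cultures alone, and 34 and 43 over 12 to 24 h, and rising genes 50 with the 5 RPKM filter. With a time point left out, falling genes ranged from 78 to 1192 and rising genes from 4 to 787. The fit without 4 h called the most and that without 20 h the fewest. The causes were not tested. List medians moved by more than their spread over hours for the immunity-related GTPases (−2.10 without a filter, which adds members of low level) and, with the 5 RPKM filter, for homing and adhesion (−0.61) and for monocytes, macrophages and dendritic cells (−0.60), which leaves fewer members. Under the other scalings the median of all genes tested was at most 0.0431, against 0.002 with the values as deposited. Genes of few reads, such as Ccl17 in Th0, are limited by counting error, and with 1 library per condition and hour no biological replicate error is available. The comparison is paired by time point, which the fit holds as a factor. Without this replicate block, an alternative chosen after seeing the data, 69 genes were lower and 10 higher, and 31 of the 51 named genes were called.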

Other observations

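On the chromosomes, 67 of the 196 lower genes, of 186 with coordinates, stood in 15 groups of at least 3 called genes with gaps of no more than 500000 bases. Beside the Gbp and Irg groups, these held Ifit2, Ifit3, Ifit1bl1, Ifit3b and Ifit1 (chr19:34550694-34650009, 5 of 5 genes tested), Ly6e, Ly6i, Ly6a, Ly6c1 and Ly6c2 (chr15:74955051-75111970, 5 of 5), Ifi204, Mndal, Ifi203 and Ifi205 (chr1:173747293-174031810, 4 of 4) and 6 Trim genes (chr7:104244457-104507849, 6 of 7). Other groups were less complete, such as Slfn5, Slfn8 and Slfn1 (3 of 5) and Oas2, Oas3 and Oas1a (3 of 5). Reads may be split between near copies within these families. Some members of groups also overlap in position, such as Gm17334 with Irf1 and Gm15821 with Tap2, so reads may be shared. How many groups as many genes drawn from all those tested would form was not counted. No group of 3 was found among the higher genes.

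Of the 196 lower genes, 119 were in none of the lists. Samhd1, a hydrolase of deoxynucleotides that restricts viruses, was between 455 and 1186 RPKM in Th0 and between 110 and 326 RPKM in Th2, without overlap (−2.25, SE 0.12, adjusted p = 4.6e-09). Jun was between 17.5 and 27 RPKM in Th0 and between 5.85 and 16.4 RPKM in Th2 (−1.34, SE 0.12), both far under the resting cells (300 and 296 RPKM). Tnfsf11, which encodes RANK ligand, was among the higher genes, with 13.8 RPKM in Th0 and 50.9 RPKM in Th2 at 4 h and 58.8 and 116 RPKM at 24 h (1.05, SE 0.16). These genes were chosen after their values were seen.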
